A study of Mus musculus with 6 samples.

Results

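The small leucine-rich proteoglycans are secreted matrix proteins built around a run of leucine-rich repeats, most of which carry sugar chains. Their expression is described here for 9 genes, decorin (Dcn), biglycan (Bgn), asporin (Aspn), fibromodulin (Fmod), lumican (Lum), Prelp, osteomodulin (Omd), osteoglycin (Ogn) and podocan (Podn). The genes were chosen by their place in this family, with earlier results of these data known. All 9 were found by symbol among the 43074 genes of the count table, and all 9 were among the 17433 genes with enough counts to be tested. RNA sequencing had been run on C2C12, an established line of wild-type mouse myoblasts that stop dividing and fuse into multinucleated myotubes when serum is changed. The 3 groups were untreated cells at day 0, which had been grown in medium with fetal bovine serum, cells differentiated for 4 days in medium with 5% horse serum plus the solvent DMSO, and cells differentiated for the same time with 1 mM 4-phenylbutyric acid (4-PBA). 4-PBA is a small aromatic fatty acid that inhibits histone deacetylases and helps proteins fold. Each group had 2 libraries. The labels do not say whether these came from separate cultures, so the p-values measure the spread between libraries, which may be technical. Day 0 differs from both day 4 groups in medium as well as in time. It also differs in treatment, as the day 0 cells were untreated and the day 4 control cells received DMSO.

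Small leucine-rich proteoglycans are sorted into classes by their protein sequence. Dcn, Bgn and Aspn are of class I. The core proteins of Dcn and Bgn carry chondroitin or dermatan sulfate chains, while asporin has a run of aspartates in their place. Fmod, Lum, Prelp and Omd are of class II and are typically substituted with keratan sulfate or sulfated on tyrosines, Ogn is of class III, and Podn is of a separate class. The repeats bind collagen and set the spacing and width of its fibrils. Several members also bind growth factors of the TGF-β family, and in muscle biglycan binds the dystrophin-associated complex.

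The 300-base windows around the RefSeq start sites, from 250 bases before the start to 50 after it, are shown for 4 members that stand for the patterns found below. Bgn was the most abundant member per unit of length, Prelp was the member that differed between 4-PBA and DMSO, and Aspn and Omd are neighbours on chromosome 13, of which Aspn was called higher and Omd lower with DMSO, a call for Omd that was lost under 3 of 14 other settings and not made with 4-PBA. Sequences are from RefSeq on build GRCm38.p6, read 5′ to 3′ on the gene's strand, and capitals mark every match to the motifs searched. The Bgn window is chrX:73483351-73483650 (+ strand), that of Prelp is chr1:133921352-133921651 (- strand), that of Aspn is chr13:49544193-49544492 (+ strand) and that of Omd is chr13:49582212-49582511 (+ strand).
Bgn: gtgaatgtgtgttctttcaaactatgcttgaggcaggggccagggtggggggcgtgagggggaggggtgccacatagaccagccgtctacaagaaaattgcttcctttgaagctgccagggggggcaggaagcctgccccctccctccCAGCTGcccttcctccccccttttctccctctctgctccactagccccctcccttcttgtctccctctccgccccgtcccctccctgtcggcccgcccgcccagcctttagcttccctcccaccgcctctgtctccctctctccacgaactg
Prelp: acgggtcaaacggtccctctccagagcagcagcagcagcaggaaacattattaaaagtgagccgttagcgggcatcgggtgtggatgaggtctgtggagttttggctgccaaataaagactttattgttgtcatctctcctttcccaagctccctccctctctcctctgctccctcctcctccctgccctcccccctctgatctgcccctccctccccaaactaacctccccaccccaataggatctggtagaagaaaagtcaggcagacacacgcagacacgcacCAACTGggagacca
Aspn: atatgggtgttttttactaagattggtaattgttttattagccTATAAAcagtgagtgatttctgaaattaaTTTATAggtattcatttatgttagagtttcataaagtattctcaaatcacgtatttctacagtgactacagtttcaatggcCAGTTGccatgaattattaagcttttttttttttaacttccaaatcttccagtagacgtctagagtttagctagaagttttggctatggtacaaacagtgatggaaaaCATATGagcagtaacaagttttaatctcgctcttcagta
Omd: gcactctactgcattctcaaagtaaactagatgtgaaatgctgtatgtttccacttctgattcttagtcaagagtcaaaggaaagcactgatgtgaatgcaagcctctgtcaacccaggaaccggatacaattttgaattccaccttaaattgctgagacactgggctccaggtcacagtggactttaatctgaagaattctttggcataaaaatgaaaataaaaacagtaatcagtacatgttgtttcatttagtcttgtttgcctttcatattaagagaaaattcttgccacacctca

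The windows differ in base composition, with a GC content of 63.7% for Bgn, 55.3% for Prelp, 37.7% for Omd and 31.0% for Aspn. RefSeq windows were at hand for 7 of the 9 members, Dcn and Lum being the others. Both strands were searched. An E-box (CANNTG), the core bound by myogenic and other basic helix-loop-helix factors, occurred in 6 of the 7, with Omd the exception. It occurred in 72.3% of 32544 promoter windows of the same length, so its presence is common. The E-box form CAGCTG, which is counted among the E-boxes too, occurred in 3 of the 7 (Bgn, Ogn and 1 of the 2 Podn windows) against 16.4% of all windows. In Bgn it lay 102 to 97 bases before the start. The TATA motif TATAAA occurred in 2 of the 7 (Aspn and Ogn) against 13.6%. The members are counted by gene, and Podn had 2 windows, whereas the shares over all promoters are by window. The first bases after the start in the Ogn window were not found in a GENCODE M21 transcript of Ogn, so the place of that start is uncertain. The study's title names NF-κB and Egr-1. No member's window had a match to the NF-κB motif or to the Egr motif GCGNGGGCG, which 8.49% and 5.60% of all windows had. The same held for the AP-1 motif TGANTCA (7.79% of all windows), the MEF2 motif (3.16%) and the CArG box (1.64%). These matches are descriptions of letters in a short window and say nothing on binding.

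Total counts per library ranged from 47908926 to 74697397, so 1 count was worth 0.0135 to 0.0206 CPM (counts per 1000000 after scaling of library sizes). The labelled cell type was checked with 7 muscle markers, all of which were called higher at day 4 than at day 0. Myog, the transcription factor myogenin, stood at 7.94 and 7.85 CPM at day 0, at 277 and 297 CPM with DMSO, and at 289 and 287 CPM with 4-PBA. Markers of other connective tissue cells were present in part. The summed level of 8 fibroblast markers was 440.1 to 447 CPM at day 0, 599 to 604 CPM with DMSO and 619 to 627 CPM with 4-PBA. With DMSO 3 of the 5 tested fibroblast markers were higher than at day 0 and 1, Pdgfra, was lower. Most of the rise of the sum was Ly6a, at 159 and 166 CPM at day 0 and at 313 and 317 CPM with DMSO. Pdgfrb, the other large part of the sum, was not called (log2 fold change -0.058). Tcf21 had no count in any library, and Thy1 and Dpp4 reached at most 0.0674 CPM. The sum of 5 tendon markers rose in the same way, from 87.5 to 89.1 CPM at day 0 to 168 to 171 CPM with DMSO and 175 to 189 CPM with 4-PBA, and 2 of 3 tested tendon markers were called higher with DMSO. Most of that sum was Scx, while Tnmd and Thbs4 reached at most 0.127 CPM. Sums of markers lay between 107 and 133 CPM for cartilage, 55.6 and 86.7 CPM for bone, 15.3 and 30.5 CPM for fat, and 1.87 and 6.52 CPM for blood and endothelium over all libraries. Most of the cartilage sum was Sox9, most of the bone sum Runx2, and most of the fat sum Pparg and Cebpa. From day 0 to DMSO the bone sum went from 84.1 to 86.7 CPM down to 59.9 to 66.6 CPM. The fat sum went from 29.2 to 30.5 CPM down to 15.4 to 16.1 CPM. The sum for blood and endothelium also fell, from 6.31 to 6.52 CPM down to 2.02 to 2.93 CPM. The part of the fibroblast and tendon markers in the changes below was not tested.

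Differentiation in DMSO was accompanied by a rise of most of these genes. Of the 9 members, 6 were called higher at day 4 with DMSO than at day 0 (Dcn, Bgn, Aspn, Lum, Prelp and Ogn), 1 was called lower (Omd), and Fmod and Podn were not called. A call is an adjusted p-value under 0.05 in edgeR's quasi-likelihood test over all tested genes. In the same comparison 66.3% of all tested genes were called, 33.8% higher and 32.6% lower. The 7 calls among 9 members are thus close to the general share, and so are the 7 members whose libraries did not overlap, beside 81.9% of all genes. At least 2-fold higher were 5 of the 9 members (Dcn, Bgn, Lum, Prelp and Ogn), where 13.2% of all genes met both conditions. Lum, with 0 and 2 counts at day 0, passed the count filter only through its day 4 libraries. Its place among the genes called higher was thus favoured by the filter and is no separate support. The median log2 fold change of the members was 1.23, beside 0.023 over all genes. In bulk RNA, more cells that express a gene and more RNA of it per cell cannot be told apart.

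Of the class I genes, Dcn changed most. Dcn, which binds collagen and TGF-β and restrains receptor tyrosine kinases such as Met, stood at 8.25 and 8.05 CPM at day 0 and at 269 and 294 CPM with DMSO. Both day 4 libraries lay far above both day 0 libraries, a log2 fold change of 5.11 (SE 0.0601, edgeR adjusted p 4.30e-21), or 34.6-fold. The size was 5.04 to 5.18 under all other settings tried, including fits without each library. Bgn, which binds collagen and TGF-β, was abundant before differentiation, at 659 and 677 CPM, and reached 1600.2 and 1526 CPM. Its rise was 2.34-fold (log2 fold change 1.23, SE 0.0287, edgeR adjusted p 9.48e-29), with no overlap between the groups. Aspn, a relative of decorin that binds collagen and TGF-β, went from 11.3 CPM in both day 0 libraries to 16.8 and 22.1 CPM. The DMSO libraries differed by a larger ratio than any other class I pair, but both lay above day 0 (log2 fold change 0.79, SE 0.116, edgeR adjusted p 2.91e-05). Exons of Aspn overlap Cenpp on the opposite strand in GENCODE M21. Cenpp, which encodes a centromere protein, went the other way, from 16.4 and 15.3 CPM at day 0 to 8.59 and 8.94 CPM with DMSO (log2 fold change -0.85, edgeR adjusted p 1.61e-10). Whether counting used strand is not given in the sources used here, so the value of Aspn is uncertain to that extent.

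The 4 class II genes did not move together. Prelp, whose basic amino-terminal region binds heparan sulfate, stood at 1.87 and 1.48 CPM at day 0 and at 15.8 and 14.5 CPM with DMSO. This was a 9.19-fold rise (log2 fold change 3.20, SE 0.118, edgeR adjusted p 6.33e-23) without overlap. Its exons overlap Gm15851 on the opposite strand in GENCODE M21, which had at most 4 counts in a library. Lum, best known for the ordering of collagen in the cornea, was near the limit of detection at day 0, with 0 and 2 counts. With DMSO it had 33 and 75 counts, or 0.523 and 1.01 CPM. The ratio of the summed counts after scaling was 46.7, with an exact 95% interval of 12.6 to 391 that covers counting error only. It was called higher (edgeR adjusted p 1.74e-08), but its fitted log2 fold change moved between 4.67 and 8.59 with the setting, the highest being without day 0 replicate 2, which leaves 0 counts at day 0. Lum thus came up from almost nothing and remained a scarce transcript.

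Fmod, a keratan sulfate proteoglycan that guides early collagen fibril growth, stood at 1.73 and 2.12 CPM at day 0 and at 1.79 and 1.94 CPM with DMSO. The DMSO libraries lay between the day 0 libraries (log2 fold change -0.055, 95% interval -0.46 to 0.35, edgeR adjusted p 0.822). Omd, also called osteoadherin and known from mineralised matrix, was the member called lower, at 1.36 and 1.85 CPM at day 0 against 0.872 and 1.16 CPM with DMSO (log2 fold change -0.67, SE 0.252, edgeR adjusted p 0.0198). This call was lost without day 0 replicate 2 (log2 fold change -0.41, adjusted p 0.286), without DMSO replicate 1 (-0.48, adjusted p 0.168) and with the DESeq2 Wald test (adjusted p 0.0598). Omd had 55 to 130 counts in these 4 libraries.

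Ogn, or mimecan, was the second most abundant member per unit of length. It stood at 78.4 and 83.6 CPM at day 0 and at 214 and 238 CPM with DMSO, a 2.78-fold rise without overlap (log2 fold change 1.48, SE 0.0543, edgeR adjusted p 1.17e-10). Podn, a collagen-binding member first described in podocytes, had 4 and 19 counts at day 0 and 17 and 34 counts with DMSO. Its day 0 libraries differed from each other more than 3-fold in CPM (0.0823 and 0.271), and the DMSO libraries (0.269 and 0.458) overlapped them. The log2 fold change of 0.97 (95% interval -0.19 to 2.12) was not called (edgeR adjusted p 0.136), but it was 2.13 and called without day 0 replicate 2 (adjusted p 0.0300). The depth did not fix the size of a change in Podn.

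**Figure D1:**
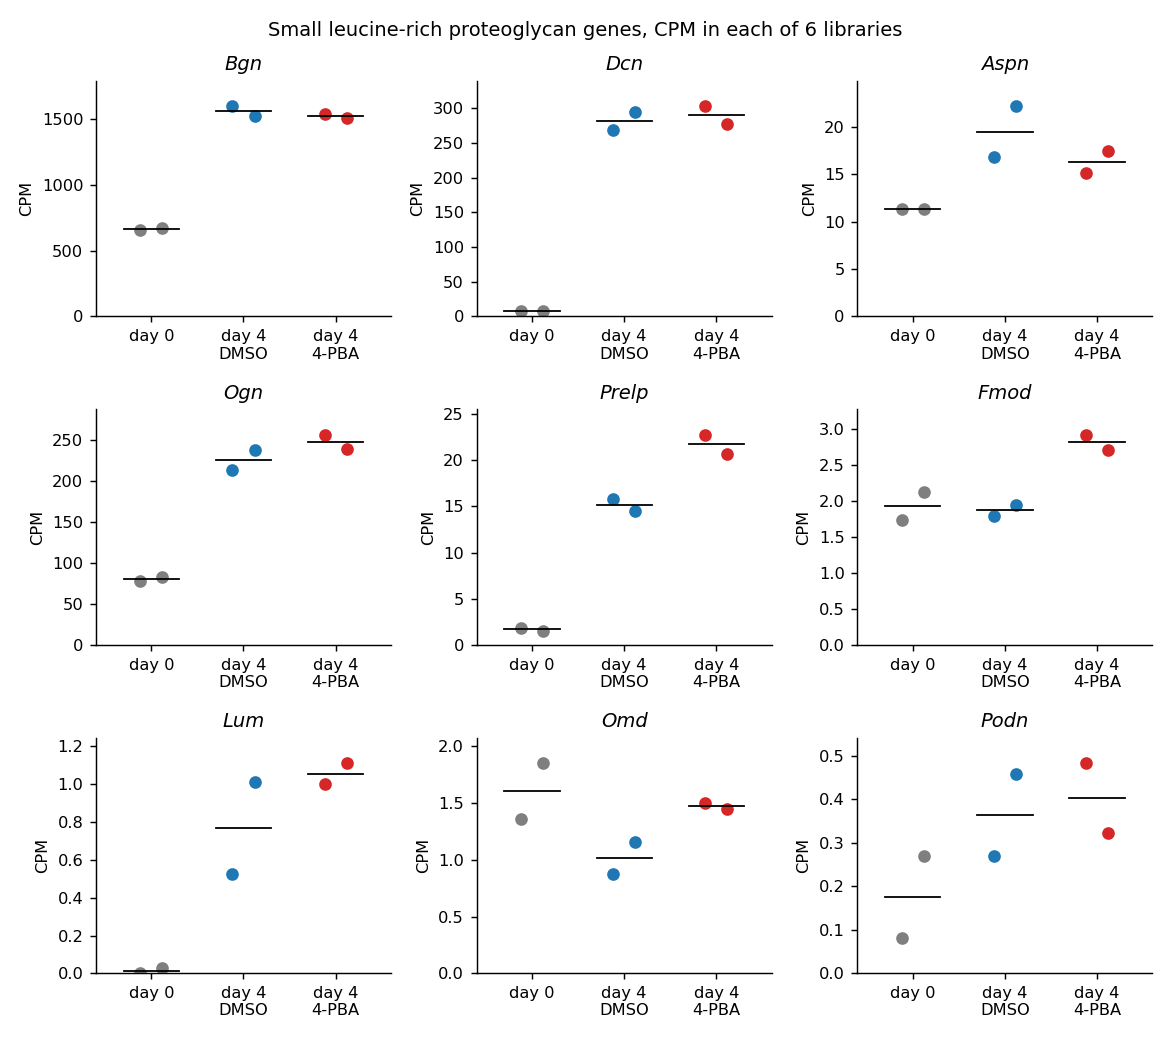
CPM of each of the 9 genes (vertical axes, starting at 0 and scaled per gene) in the 2 libraries of each group (points), with the group mean as a line. Dcn, Bgn, Aspn, Lum, Prelp and Ogn lie higher in all 4 day 4 libraries than at day 0, and Fmod, Prelp, Omd and Ogn lie higher in both 4-PBA libraries than in both DMSO libraries.

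Levels of different genes were compared as CPM per kb of merged exons in GENCODE M21. The summed level of the 9 genes was 147 and 152 CPM per kb at day 0, 404 and 408 CPM per kb with DMSO, and 420 and 403 CPM per kb with 4-PBA. At day 0 the order of mean levels was Bgn (109.6 ± 2.10 CPM per kb, SD, n = 2), Ogn (31.6 ± 1.43), Aspn (4.80 ± 0.00625) and Dcn (1.40 ± 0.0246), followed by Omd, Fmod and Prelp (0.714, 0.582 and 0.464) and by Podn and Lum (0.0413 and 0.00582). The libraries of Omd and Fmod overlapped on this scale, as they did not for the first 4 genes. With DMSO, Dcn had passed Aspn to become the third, at 48.2 ± 3.03 CPM per kb, behind Bgn (256 ± 8.60) and Ogn (88.0 ± 6.53). Aspn (8.26 ± 1.62), Prelp (4.20 ± 0.251), Fmod (0.564), Omd (0.452), Lum (0.313) and Podn (0.0852) followed. Omd and Lum overlapped between libraries. With 4-PBA the order of the 9 genes was the same as with DMSO.

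The makeup of the summed level of these 9 genes therefore shifted between day 0 and day 4. Other genes of the family, such as Podnl1 and Tsku, are not part of this sum. The share of Bgn in the summed level was 73.8% and 73.2% at day 0 and 64.9% and 61.3% with DMSO. The share of Dcn was 0.965% and 0.908% at day 0 and 11.4% and 12.3% with DMSO. The ratio of Bgn to Dcn per unit of length went from 76.5 and 80.6 at day 0 to 5.70 and 4.97 with DMSO, and stood at 4.88 and 5.21 with 4-PBA. Ogn kept a like share, with means of 21.2%, 21.6% and 23.5% in the 3 groups. These shares and the ratio depend on the length assumed for Bgn. With the longest transcript of each gene in place of merged exons, a choice made after the data were seen, Bgn held 86.2% at day 0, 78.4% with DMSO and 76.7% with 4-PBA. On that scale the mean share of Dcn was 0.598%, 8.01% and 8.28% in the 3 groups, and that of Ogn was 10.9% at day 0 and 11.8% with DMSO. The ratio of Bgn to Dcn was then 144 in untreated cells, 9.78 with DMSO and 9.27 with 4-PBA. The order of the 9 genes by mean level did not change.

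**Figure D2:**
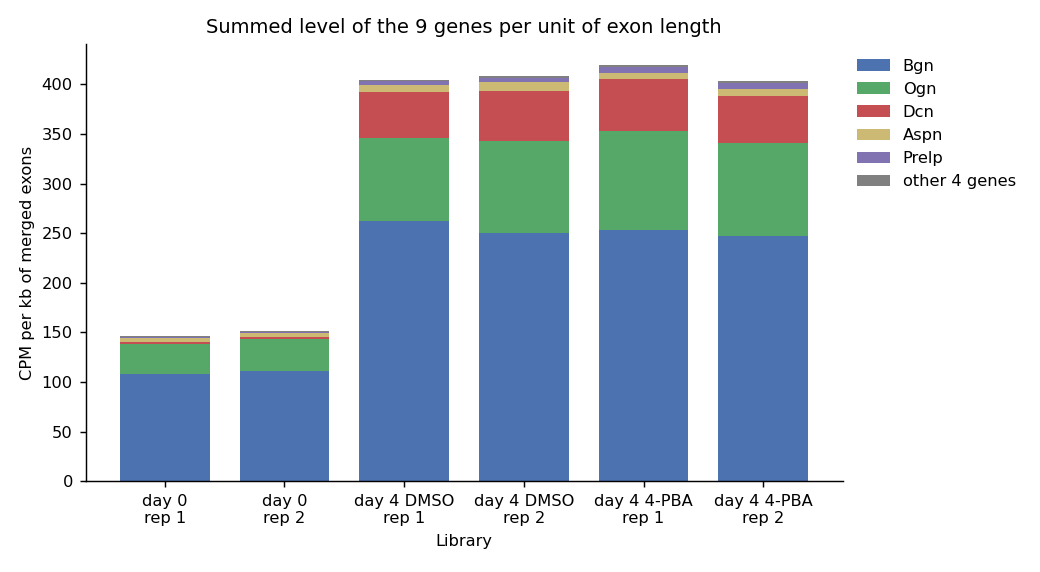
Summed level of the 9 genes in each library as CPM per kb of merged exons (vertical axis from 0), split by gene in colours. The summed bar is 147 and 152 CPM per kb at day 0 and between 403 and 420 CPM per kb in the day 4 libraries, where the part of Dcn has grown from under 1% to more than 11% on this length scale.

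The study's title names matrix gene expression under 4-PBA, which the 4 libraries of day 4 address. Prelp was the only member called between 4-PBA and DMSO, and it was higher with 4-PBA. Over all tested genes 4.9% were called, 2.13% higher and 2.78% lower, so 1 call among 9 members is not far from the general share. The median log2 fold change of the members was 0.14, beside 0.0021 over all genes. The unadjusted p-value was under 0.05 for 5 of the 9 (Aspn, Fmod, Prelp, Omd and Ogn), beside 16.7% of all genes. The libraries of the 2 groups did not overlap for 4 of the 9 members (Fmod, Prelp, Omd and Ogn, all higher with 4-PBA), beside 45.5% of all genes.

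Prelp stood at 22.8 and 20.7 CPM with 4-PBA against 15.8 and 14.5 CPM with DMSO. Both 4-PBA libraries lay above both DMSO libraries, and the difference in means was larger than the spread in either group. Its log2 fold change was 0.52 (SE 0.0839, edgeR adjusted p 1.09e-04), a rise of 43.3%. The call held under all 14 other settings and left-out libraries, with log2 fold changes of 0.45 to 0.59 and adjusted p-values up to 0.0181.

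Fmod stood at 2.92 and 2.71 CPM with 4-PBA against 1.79 and 1.94 CPM with DMSO. The log2 fold change of 0.59 (95% interval 0.20 to 0.98) was as large as that of Prelp, but at 113 to 181 counts per library it was not called (edgeR adjusted p 0.0677). It was called under none of the 14 other settings, with adjusted p-values of 0.0577 to 0.341. Omd stood at 1.50 and 1.45 CPM against 0.872 and 1.16 CPM (log2 fold change 0.53, 95% interval 0.014 to 1.04, edgeR adjusted p 0.281). Lum stood at 0.999 and 1.11 CPM against 0.523 and 1.01 CPM, with overlap (log2 fold change 0.45, 95% interval -0.28 to 1.17, edgeR adjusted p 0.597).

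For the abundant members the intervals leave room for small differences only. Dcn stood at 303 and 277 CPM with 4-PBA, overlapping the DMSO libraries (log2 fold change 0.042, 95% interval -0.051 to 0.14, edgeR adjusted p 0.724). Its sign depended on the library: it was -0.021 without DMSO replicate 1 and -0.023 without 4-PBA replicate 1. Bgn stood at 1543 and 1508 CPM (log2 fold change -0.035, 95% interval -0.093 to 0.022, edgeR adjusted p 0.596). Ogn stood at 257 and 239 CPM against 214 and 238 CPM (log2 fold change 0.14, 95% interval 0.022 to 0.25, edgeR adjusted p 0.200). It was called without DMSO replicate 2 (log2 fold change 0.22, adjusted p 5.30e-05) and with no filter beyond 1 count (adjusted p 0.00467), but not without DMSO replicate 1 (log2 fold change 0.061).

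Aspn was lower on average with 4-PBA, at 15.1 and 17.4 CPM against 16.8 and 22.1 CPM with DMSO, but the groups overlapped (log2 fold change -0.26, 95% interval -0.50 to -0.020, edgeR adjusted p 0.252). The value rested on which DMSO library was used: it was -0.44 and called without DMSO replicate 1 (adjusted p 1.37e-04) and -0.040 without DMSO replicate 2 (adjusted p 0.904). It was also called with no filter beyond 1 count (adjusted p 0.0203). DMSO replicate 2 lay above DMSO replicate 1 in 7 of the 9 members, the exceptions being Bgn and Prelp. Replicate 2 lay above replicate 1 in 6 of the 9 at day 0 and in 2 of the 9 with 4-PBA. The share over all genes was not counted. Podn stood at 0.483 and 0.322 CPM (log2 fold change 0.13, 95% interval -0.92 to 1.18, edgeR adjusted p 0.941). Beside these values, the 7 muscle markers summed to 6819 to 6944 CPM with 4-PBA and 7068 to 7363 CPM with DMSO, with 3 of the 7 called lower. Scx stood at 150 and 145 CPM with 4-PBA against 128 and 141 CPM with DMSO (log2 fold change 0.13, edgeR adjusted p 0.0423). The cartilage marker Sox9 went the other way, at 112 and 106 CPM against 132 and 131 CPM (log2 fold change -0.27, edgeR adjusted p 5.76e-06). These 2 were the called markers outside muscle. The part of all these markers in the difference of Prelp was not tested.

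Differentiation in the presence of 4-PBA gave 7 calls among the 9 members against day 0, all of them higher: Dcn, Bgn, Aspn, Fmod, Lum, Prelp and Ogn. Over all genes 65.6% were called in this comparison, 33.2% higher and 32.4% lower. The rise was called and at least 2-fold for 5 members, beside 12.8% of all genes, and the libraries did not overlap for 8 members, beside 81.8%. Because it shares the day 0 libraries with the comparison for DMSO and the 4-PBA libraries with the preceding one, its values are set beside those and are no independent support. The log2 fold changes from day 0 with DMSO and with 4-PBA were 5.11 and 5.15 for Dcn, 1.23 and 1.19 for Bgn, and 1.48 and 1.61 for Ogn. For Prelp they were 3.20 and 3.72, and for Aspn 0.79 and 0.53. For Fmod they were -0.055 and 0.53 (SE 0.193, edgeR adjusted p 0.0156 with 4-PBA). The Fmod call was lost with the DESeq2 Wald test (adjusted p 0.0501), without day 0 replicate 1 (adjusted p 0.135) and without 4-PBA replicate 1 (adjusted p 0.0857). Omd, called lower with DMSO, stood at -0.14 with 4-PBA (95% interval -0.64 to 0.36, edgeR adjusted p 0.641). The tests of these differences themselves are those between 4-PBA and DMSO, which of these genes called Prelp. Lum had 131 counts over both 4-PBA libraries against 2 at day 0, a ratio of 62.7 with an exact 95% interval of 17.0 to 523 for counting error. Lum, counted among the 5 members above, passed the count filter only through its day 4 libraries.

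**Figure D3:**
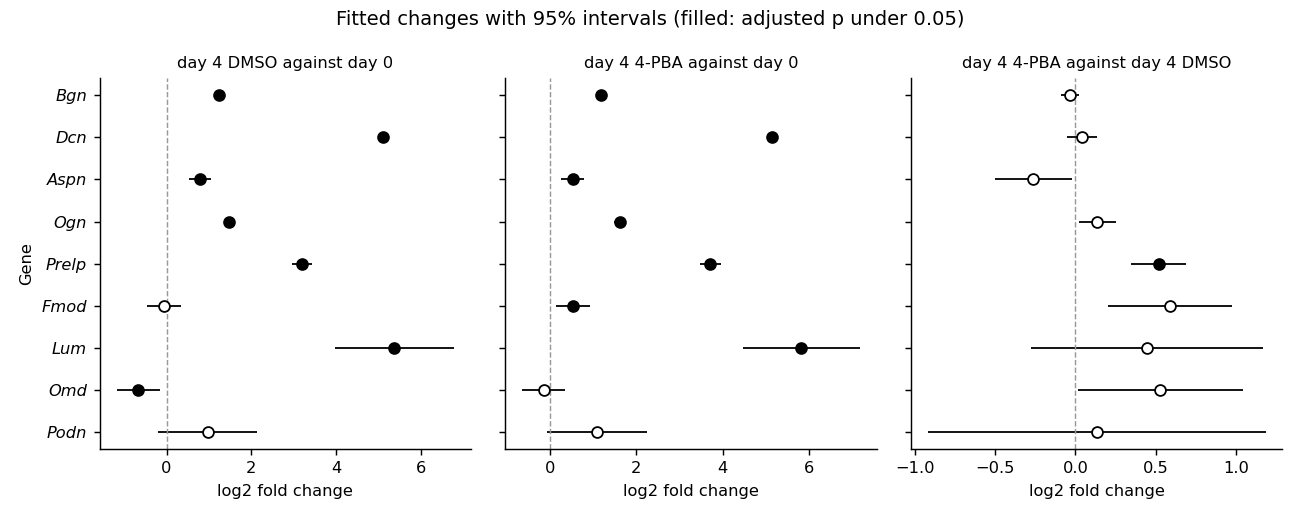
Log2 fold change (horizontal axis, with its own range in each panel) of the 9 genes in the 3 comparisons, with 95% intervals as lines and filled points for adjusted p under 0.05. The 2 panels against day 0 share the day 0 libraries, and the right panel, 4-PBA against DMSO, has Prelp as its filled point.

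Most members lie beside another gene of the family. In RefSeq order along chromosome 1, Optc, Prelp and Fmod follow each other among protein-coding genes. Dcn, Lum, Kera and Epyc do so on chromosome 10, and Ecm2, Aspn, Omd and Ogn on chromosome 13. Bgn on chromosome X and Podn on chromosome 4 have no family gene as a direct neighbour. On chromosome 10, Dcn and Lum both rose steeply by day 4 with DMSO, as given above, whereas Kera had no count in any library and Epyc had at most 3.

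On chromosome 1, Optc, which encodes opticin of the eye's vitreous, rose together with Prelp, from 0.165 and 0.114 CPM at day 0 to 0.586 and 0.458 CPM with DMSO (log2 fold change 1.92, SE 0.490, edgeR adjusted p 8.08e-04), while Fmod was not called. With 4-PBA Optc stood at 1.16 and 0.741 CPM. Its log2 fold change against DMSO was 0.87 (95% interval 0.10 to 1.63) and, like that of Fmod, was not called (edgeR adjusted p 0.216). The 3 neighbours thus had fitted values of 0.52 to 0.87 between 4-PBA and DMSO, and 1 of the 3 was called. The libraries of the 2 groups lay apart in each, as they did in 45.5% of all tested genes. Optc had only 34 to 72 counts per library at day 4. These 3 genes were put side by side for their position, and no test of the group as a whole was made.

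On chromosome 13 the changes by day 4 with DMSO ran in different directions within 1 row of genes. Ecm2, which encodes a matrix protein with leucine-rich repeats, rose from 0.741 and 1.20 CPM to 4.96 and 5.19 CPM (log2 fold change 2.34, SE 0.194, edgeR adjusted p 1.24e-12). Its neighbour Aspn rose by 0.79 on the log2 scale, Omd between Aspn and Ogn fell by 0.67, and Ogn rose by 1.48. Ecm2, Omd and Ogn lie within introns of Cenpp, which is on the opposite strand. No gene of this row was called between 4-PBA and DMSO.

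**Figure D4:**
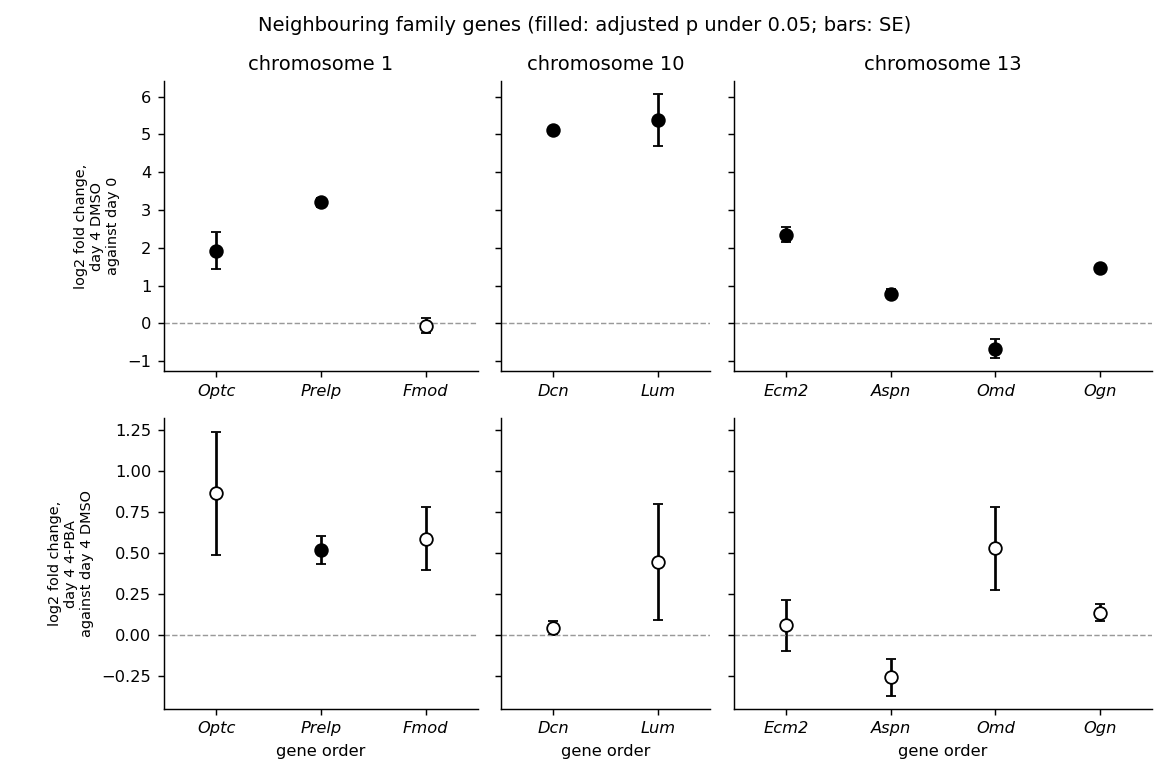
Log2 fold change (vertical axis) of family genes in their order along chromosomes 1, 10 and 13, for DMSO against day 0 (top) and 4-PBA against DMSO (bottom), with the SE as bars and filled points for adjusted p under 0.05. Dcn and Lum lie near 5 in the top row, Omd lies below 0 between Aspn and Ogn, and Optc, Prelp and Fmod lie between 0.52 and 0.87 in the bottom row.

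The genes nearest to each member in pattern were found by the distance between log2 CPM profiles over the 6 libraries, each centred on its mean, for the 8 members with at least 1 CPM in a group. The gene nearest to Dcn was Myog (distance 0.116, Pearson r 0.9999 over 6 libraries as a description), followed by Tnnc1, the slow troponin C gene (0.237). Myog had a log2 fold change of 5.19 with DMSO against day 0 and 0.0052 between 4-PBA and DMSO. Bgn lay nearest to Stard13 (0.0542) and Tln2 (0.0676), and Ogn to Tmem64 (0.109) and Fbxl20 (0.113). Prelp lay nearest to the fibrillar collagen gene Col11a1 (0.388) and to the matricellular gene Ccn3 (0.408). These 2 genes had log2 fold changes of 0.51 and 0.40 between 4-PBA and DMSO. For Aspn the nearest were Lpar4 (0.177) and Gm56862 (0.224), for Fmod Gm48619 (0.193) and Rwdd2a (0.207), for Omd Gm21985 (0.190) and C1s1 (0.289), and for Lum Gm56732 (0.504) and Shisa2 (0.530). The profiles are dominated by the step from day 0 to day 4, and those of scarce genes hold much counting noise. Because the nearest genes were picked over all 6 libraries, fold changes like those of the member follow from the choice.

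Of the 9 other genes of the family, 5 had enough counts to be tested. With DMSO against day 0, Ecm2 and Optc were called higher, Podnl1 and Tsku lower, and Chadl was not called. Podnl1, a relative of podocan, stood at 21.7 and 23.3 CPM at day 0 and at 17.4 and 15.8 CPM with DMSO (log2 fold change -0.45, SE 0.0740, edgeR adjusted p 2.33e-06), so it was far more abundant than Podn and moved the other way. Tsku, a secreted inhibitor of growth factor signals, stood at 18.1 and 15.2 CPM against 15.2 and 12.4 CPM (log2 fold change -0.27, edgeR adjusted p 0.0295), with the day 0 libraries only just above the DMSO libraries. None of these 5 was called between 4-PBA and DMSO, and Optc and Podnl1 had unadjusted p-values under 0.05 (0.0275 and 0.0380). Prelp was thus the only gene called in that comparison among the members and these 5.

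The enzymes that build the sugar chains changed in both directions. Of 22 tested genes of the linker and of chondroitin and dermatan sulfate synthesis, 9 were higher and 6 lower with DMSO than at day 0, with a median log2 fold change of 0.12. Pxylp1, which encodes the phosphatase that removes the xylose phosphate from the linker, fell from 19.6 ± 0.965 to 8.09 ± 0.213 CPM (log2 fold change -1.27, edgeR adjusted p 3.70e-15). Chst13, a chondroitin 4-O-sulfotransferase gene, was at 0 and 0.0570 CPM at day 0 and at 2.87 and 2.52 CPM with DMSO (edgeR adjusted p 2.16e-14). Like Lum, Chst13 passed the count filter only through its day 4 libraries. With 4-PBA against DMSO, 2 of these 22 were called, both higher: Chpf, a chondroitin polymerizing factor (log2 fold change 0.16, edgeR adjusted p 0.00779), and Pxylp1 (0.31, edgeR adjusted p 0.0444).

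Of 7 tested genes of keratan sulfate synthesis, 3 were higher and 2 lower with DMSO (median log2 fold change -0.023). Chst1, a keratan sulfate sulfotransferase gene, fell from 81.9 ± 1.29 to 20.9 ± 0.497 CPM (log2 fold change -1.97, edgeR adjusted p 3.30e-27), while B4galt4, a galactosyltransferase gene, rose from 8.17 ± 1.10 to 19.3 ± 1.10 CPM (1.23, edgeR adjusted p 7.68e-15). Of 7 tested genes of sulfate supply and tyrosine sulfation, 2 were higher and 4 lower (median -0.21), with Papss1, which makes the sulfate donor, at -0.44 (edgeR adjusted p 9.18e-12) and the tyrosylprotein sulfotransferase gene Tpst1 at -0.45 (6.57e-08). None of these 14 genes was called between 4-PBA and DMSO.

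Genes for the binding partners mostly rose by day 4. Of 11 tested collagen genes, 10 were higher and 1 lower with DMSO (median log2 fold change 1.18). Col3a1 rose from 1677 ± 18.5 to 4234 ± 22.0 CPM (1.34, edgeR adjusted p 1.86e-31) and Col5a1 from 659 ± 2.50 to 1692 ± 22.9 CPM (1.36, 6.61e-31). Between 4-PBA and DMSO 4 of the 11 were higher and 1 lower, with Col12a1 at 0.18 (edgeR adjusted p 1.39e-04) and Col11a1 at 0.51 (2.00e-04). Of 18 tested growth factor, receptor and membrane partner genes, 15 were higher and 1 lower with DMSO (median 0.90). The TGF-β receptor gene Tgfbr2 rose from 111 ± 3.80 to 349 ± 0.564 CPM (log2 fold change 1.65, edgeR adjusted p 4.76e-31). With 4-PBA against DMSO 1 of the 18 was higher and 2 were lower, led by the endocytic receptor gene Lrp1 (-0.13, edgeR adjusted p 0.00344) and Ccn4 (-0.13, 0.00467).

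Of 11 tested genes for proteases that cut members or their binding partners, or enhance such cleavage, 10 were higher and 1 lower with DMSO (median log2 fold change 1.94). The gelatinase gene Mmp2 rose from 35.8 ± 0.115 to 137 ± 3.12 CPM (log2 fold change 1.94, edgeR adjusted p 1.19e-30) and the aggrecanase gene Adamts4 from 20.1 ± 1.59 to 123 ± 5.93 CPM (2.61, 2.93e-30). In the comparison of 4-PBA with DMSO 1 of the 11 was called: Pcolce, which enhances procollagen processing by Bmp1, was higher (0.15, edgeR adjusted p 9.78e-04). The lists were chosen by function, and their counts are descriptions to be read against the 66.3% and 4.9% of all genes called.

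**Figure D5:**
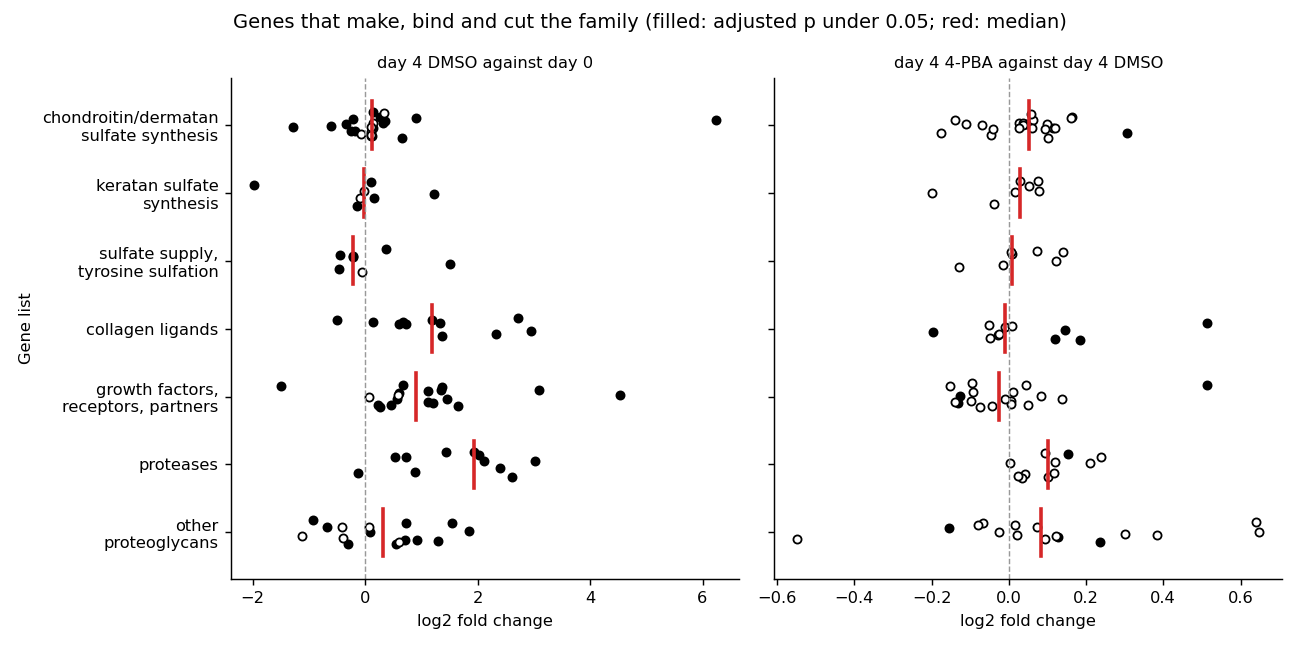
Log2 fold change (horizontal axis, with its own range in each panel) of the tested genes of 7 lists around the family, for DMSO against day 0 (left) and 4-PBA against DMSO (right), with filled points for adjusted p under 0.05 and the list median in red. In the left panel the medians of the collagen, partner and protease lists lie at 1.18, 0.90 and 1.94, and those of the keratan sulfate and sulfate supply lists lie below 0.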

How the data were processed

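RNA was measured in 6 libraries of C2C12 cells. Per the labels, DNase-treated total RNA was made into directional libraries. The table the authors deposited holds raw counts, with a row per gene symbol and a column per library. The submitters' processing notes name build GRCm39; the aligner, counter, annotation and strand setting are not given in the sources used here. Of 43074 symbols, 13014 had no count in any library.

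These counts went into edgeR 4.0.16 (R 4.3.3) with filterByExpr, TMM scaling, 1 mean per group over all 6 libraries, and robust quasi-likelihood F tests with Benjamini-Hochberg adjustment over 17433 genes, called under 0.05. All libraries carry batch 1, so no batch term was fitted. The design left 3 residual degrees of freedom (median prior 30.4), and the common biological variation was 3.74%. SEs were derived from the F statistic and the log2 fold change, and 95% intervals use them with the moderated degrees of freedom. With 2 against 2 libraries an exact relabelling test cannot go below 0.333, so adjusted p-values depend on the spread pooled over genes. CPM uses TMM-scaled library sizes. Exact (Clopper-Pearson) intervals of count ratios and counts near 0 cover counting error only.

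The members, lists and tests were chosen with earlier results of these data known. Named genes were the 9 members, the 2 genes of a list with the smallest adjusted p-value, neighbours on the chromosome, the marker Myog and the 2 nearest profiles (log2 CPM, prior count 2). Further genes were named after their values were seen. These were Tcf21, Thy1, Dpp4, Pdgfra, Pdgfrb, Scx, Sox9, Tnmd and Thbs4 among markers, Cenpp and Gm15851 as overlapping genes, and the remaining family genes. One gene that this rule would name is not reported here. Marker lists covered muscle, fibroblast, tendon, cartilage, bone, fat, and blood and endothelium. Lengths and overlaps are from GENCODE M21 (GRCm38), and promoters and gene order from RefSeq (GRCm38.p6), so no coordinates of the counts' build are given.

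The alternatives tried were the DESeq2 1.42.0 Wald test, 2 other filters, 2 other scalings (DESeq2 size factors and library size alone), limma-voom (limma 3.58.1), fits of the 4 libraries compared, a replicate block, a threshold of 0.01, leaving out each library and, added after seeing the data, another gene length (for shares of Bgn, Dcn and Ogn). Same-numbered libraries did not deviate together over all tested genes (correlations of -0.028, -0.0031 and -0.012). Each deviation rests on the difference between the 2 libraries of a group and holds counting noise. These correlations therefore cannot show whether same-numbered libraries shared a culture. On simulated data with 4-PBA set against DMSO, 39 of 50 genes changed 1.25-fold and 49 of 50 changed 1.5-fold were called among 16769 genes, with 12 false calls. The simulation gave every gene the common variation of 3.74% and changed only genes with at least 50 expected counts. It therefore does not give the power for scarce members or for genes with a larger spread. Figures used Python 3.11.15 and matplotlib 3.10.9.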

Additional observations from a re-analysis of the deposited data

How the results depend on the processing

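The counts of members called were 7 for DMSO against day 0, 1 for 4-PBA against DMSO and 7 for 4-PBA against day 0. Under the alternatives they lay between 6 and 7, between 1 and 3, and between 6 and 8. Between 4-PBA and DMSO 3 members were called with no filter beyond 1 count (Aspn lower, Prelp and Ogn higher), and leaving out 1 library gave 1 to 2. Over all genes that comparison gave 855 calls, 424 at an adjusted p-value under 0.01, and 295 to 1194 when 1 library was left out; the lowest were 341 and 295 without 4-PBA replicates 1 and 2, which left 1 library in that group, assumed to vary like the others. With the replicate block the 3 counts of members were 7, 1 and 7, and those of all genes 11403, 768 and 11309, so the block changed no call of a member. The 10-count filter with a mean of 1 CPM left Lum and Podn untested.

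Signs reversed in members that were not called. For Dcn between 4-PBA and DMSO, leaving out 1 library gave log2 fold changes of -0.023 to 0.11, below 0 without 4-PBA replicate 1 (-0.023) or DMSO replicate 1 (-0.021). For Podn in that comparison the range was -0.19 to 0.58, with -0.19 without either of these libraries. Against day 0, Fmod with DMSO ranged from -0.19 to 0.12, at 0.12 without day 0 replicate 2 and 7.41e-04 without DMSO replicate 1. Omd with 4-PBA ranged from -0.33 to 0.12, at 0.12 without day 0 replicate 2. The cause was not tested. Lum, Podn, Omd and Fmod had 181 counts or fewer in every library, which limits how precisely their changes are known. Dcn, whose sign also reversed, had 16958 and 21795 counts with DMSO.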

Other observations

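Of 20 genes for proteoglycans outside the family 16 were tested. With DMSO against day 0, 8 were called higher and 3 lower, a share close to the 66.3% of all genes called, and the median log2 fold change was 0.32. The cell-surface heparan sulfate proteoglycan syndecan-2 (Sdc2) rose from 185 ± 0.308 to 541 ± 1.06 CPM (SD, n = 2; log2 fold change 1.55, edgeR adjusted p 2.08e-31), and perlecan (Hspg2), a basement membrane component, rose from 984 ± 5.46 to 2423 ± 49.8 CPM (1.30, edgeR adjusted p 1.65e-30). Between 4-PBA and DMSO 2 of the 16 were higher, Sdc2 (0.13, edgeR adjusted p 0.00437) and the glypican gene Gpc6 (0.24, edgeR adjusted p 0.0242), and 1 was lower, Cspg4 (-0.15, edgeR adjusted p 0.0329), which was named after its value was seen. Over all genes 4.9% were called in that comparison.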
